A study of Homo sapiens with 7 samples.

Results

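The step from 24 to 48 h of hypoxia was described in SK-N-BE(2) cells by comparing the lists of 5-hydroxymethylcytosine (5-hmC) peaks at these times on the 22 autosomes. The members are the 307172 autosomal peaks of the 24 h list and the 331251 of the 48 h list, together 638423 of the 1873636 peaks in the 6 lists of the series. A peak was called matched when it overlapped a peak of the other list by at least 1 bp, and unmatched otherwise. The line was established from a neuroblastoma and carries amplified MYCN, a gene for a transcription factor of the MYC family, and the labels give its genotype as wild type. Both groups were grown in RPMI with serum and then kept in 1% oxygen, for 24 h in one and 48 h in the other. The other lists come from the same line at 21% oxygen (0 h, normoxia) and after 6, 12 and 72 h in 1% oxygen. They served to look up the members, to set peak density and to give the same measures for the other steps. The step was chosen as the one with the largest rise in peak number, so its size is not a finding. Each time has 1 library, so no value has a replicate error, no test between conditions was possible, and each difference is one between 2 libraries.

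5-hmC is made from 5-methylcytosine by the TET enzymes, which use oxygen as a co-substrate, and it is an intermediate on the way to unmodified cytosine. In differentiated cells, and in neurons above all, it is found in the bodies of transcribed genes and at enhancers. Here, fragments with 5-hmC were tagged through a modified glucose, captured and sequenced, and a peak is a stretch of the genome with more captured fragments than its surroundings. The lists give the position of each peak and neither height nor score. A wider peak is therefore not known to be a stronger one. The number of reads behind each list is not given in the sources used here, and a list can lengthen with more reads, so depth and biology cannot be told apart in any count below.

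The first comparison asked how many peaks of the 24 and 48 h lists had no counterpart in the other. The 48 h list held 24079 more peaks (7.84%), and covered 176 Mb against 163 Mb. It held 59853 peaks with no 24 h counterpart, which was 18.1% of the list (95% Clopper-Pearson interval 17.9 to 18.2%, counting error only). The 24 h list held 33490 peaks with no 48 h counterpart, or 10.9% (10.79 to 11.01%). Both lists thus held peaks without a counterpart, with 1.79 unmatched 48 h peaks for each unmatched 24 h peak. As most matches were one-to-one, this ratio largely follows from the lengths of the 2 lists. With the same number of peaks in both lists, widest first, this ratio was 1.07, a setting that removes only narrow 48 h peaks. Few peaks lay near the limit of 1 bp: of the 48 h peaks, 155 were matched by at most 20 bp and 167 were unmatched with a 24 h peak within 20 bp. Both lists together covered 140 Mb in common, while 36.7 Mb were covered at 48 h alone and 23.4 Mb at 24 h alone. Of the length covered at 48 h alone, 49.2% lay within unmatched peaks, and the rest was in parts of matched peaks that no 24 h peak covered.

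The other steps are set beside it, with the reservation that steps that follow each other share a list. The ratio of unmatched peaks in the later to those in the earlier list was 1.30 from 0 to 6 h, 0.990 from 6 to 12 h, 1.56 from 12 to 24 h and 1.49 from 48 to 72 h. The ratio largely follows the change in list length, by which the step from 24 to 48 h was chosen. Its order among the steps is therefore not a finding. The share of unmatched peaks in the later list moved less, from 14.5% for 6 to 12 h to 18.1% for 24 to 48 h. Even the step from 6 to 12 h, with 1447 more peaks in all, had 42010 unmatched 12 h peaks and 42446 unmatched 6 h peaks. Unmatched peaks in such numbers were therefore present where peak number hardly differed. How many would be unmatched between 2 lists of the same time could not be tested, as each time has 1 library. From 12 to 24 h, 17.5% of the later and 11.9% of the earlier peaks were unmatched, and from 48 to 72 h 16.2% and 11.4%.

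The unmatched peaks were narrow. Unmatched 48 h peaks had a median width of 280 bp (quartiles 247 and 328 bp), against 454 bp for matched ones (347 and 666 bp). Unmatched 24 h peaks had a median of 271 bp (243 and 316 bp), against 433 bp for matched ones (329 and 636 bp). Among 48 h peaks narrower than 300 bp, 50.4% had no 24 h counterpart, and from 300 to 399 bp 20.2%. Wide peaks were almost all shared: 6 of the 27536 48 h peaks that reached 1000 bp, and 3 of the 25357 such 24 h peaks, had no counterpart. In each width class the share was higher among 48 h than among 24 h peaks, as the plot of unmatched share by width shows. Under the rule of 1 bp a wider peak has more room to match, and what this adds to the fall with width was not tested.

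**Figure D1:**
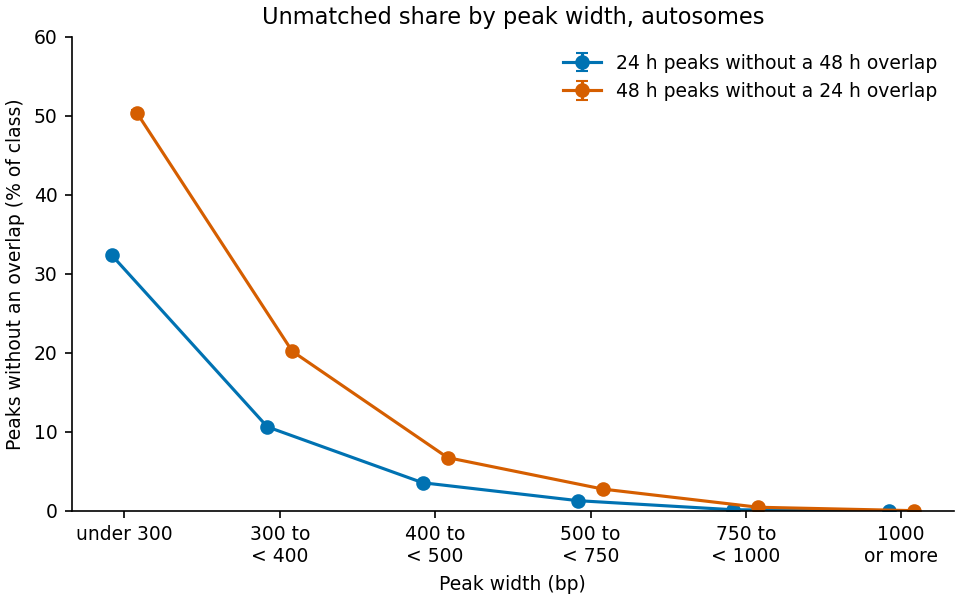
Share of autosomal peaks without an overlap in the other list (vertical axis, percent of the width class) by peak width in bp (horizontal axis), for 24 h peaks looked up at 48 h and 48 h peaks looked up at 24 h; bars are 95% Clopper-Pearson intervals and are mostly hidden by the points. The share falls from 50.4% below 300 bp to 0.0218% from 1000 bp among 48 h peaks, and from 32.3% to 0.0118% among 24 h peaks.

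The rise in number was nevertheless seen at all widths. The 48 h list held 1.06 times as many peaks as the 24 h list below 300 bp, 1.08 times from 300 to 399 and from 400 to 499 bp, and 1.09 times in each of the 3 wider classes. Median widths of 409 bp (24 h) and 410 bp (48 h) were close, and the narrowest peak measured 233 and 232 bp. The steps on both sides differed from it most below 300 bp. From 48 to 72 h, peaks below 300 bp became fewer (0.902 times) while those of at least 1000 bp became more (1.10 times), with a narrowest peak of 232 and then 242 bp. From 12 to 24 h the ratios were 1.01 below 300 bp, 1.06 from 300 to 399 bp and 1.07 from 1000 bp, with narrowest peaks of 231 and 233 bp. From 400 to 499, 500 to 749 and 750 to 999 bp they were 1.09 each, close to those from 24 to 48 h. A list's narrowest peak differs between libraries. This floor differed by 1 bp in the step from 24 to 48 h and by 2 bp in that from 12 to 24 h.

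Peaks present on both sides were mostly matched singly. Of the 24 h peaks, 248014 (80.7%) formed a pair with exactly 1 peak of the 48 h list, 7451 faced more than 1 peak at 48 h, and 9581 peaks of the 48 h list faced more than 1 at 24 h. Joined peaks at 48 h thus outnumbered split ones. Within pairs the 24 h peak had a median width of 425 bp, and its 48 h partner one of 444 bp. The 48 h peak was the wider in 57.0% of pairs and the narrower in 42.5%, and the median difference was 14 bp (quartiles -40 and 72 bp). The share that was wider lay between 54.5% and 58.7% in all 6 width classes. A total of 3169 pairs were at least 2 times as wide at 48 h, and 1513 were at most 0.5 times as wide. Midpoints of a pair lay a median of 28.5 bp apart. In other steps the 0 to 6, 12 to 24 and 48 to 72 h pairs were wider at the later time in 59.5%, 57.5% and 59.2% of cases, and the 6 to 12 h pairs in 45.3%.

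Next, the unmatched peaks were looked up in the 4 lists that the comparison did not use. Most peaks that the 48 h list added over 24 h were found again at 72 h. Of the 59853 unmatched 48 h peaks, 62.6% overlapped a 72 h peak (62.3 to 63.0%), against 25.3% in the normoxia list, 29.9% after 6 h and 29.8% after 12 h. Matched 48 h peaks were found at 94.3% at 72 h and at 84.9 to 88.2% at the earlier times, so the gap between the later and the earlier lists was wider for unmatched peaks. The 72 h list is also the longest, with 346595 peaks against 289681 at 12 h, and what its length adds to these shares was not tested. Being found in the next list was not particular to this step. Peaks at 24 h with no 12 h counterpart were found at 48 h in 60.5% of cases. For 12 h peaks with no 6 h counterpart the share found at 24 h was 51.9%. For 6 h peaks with no normoxia counterpart the share found at 12 h was 48.2%. Of the unmatched 24 h peaks, 45.9% were found at 72 h, 35.2% in the normoxia list, 37.3% after 6 h and 36.5% after 12 h. Peaks absent at 48 h thus reappeared at 72 h in 15370 of 33490 cases. This was more than the number found in any single list of 0, 6 or 12 h, each of which is shorter. However, 9441 of the 33490 had been present in some of the 0, 6 and 12 h lists and were absent at 72 h. Present at 72 h and in none of those earlier lists were 4243, and 11127 were present in some of them and at 72 h.

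**Figure D2:**
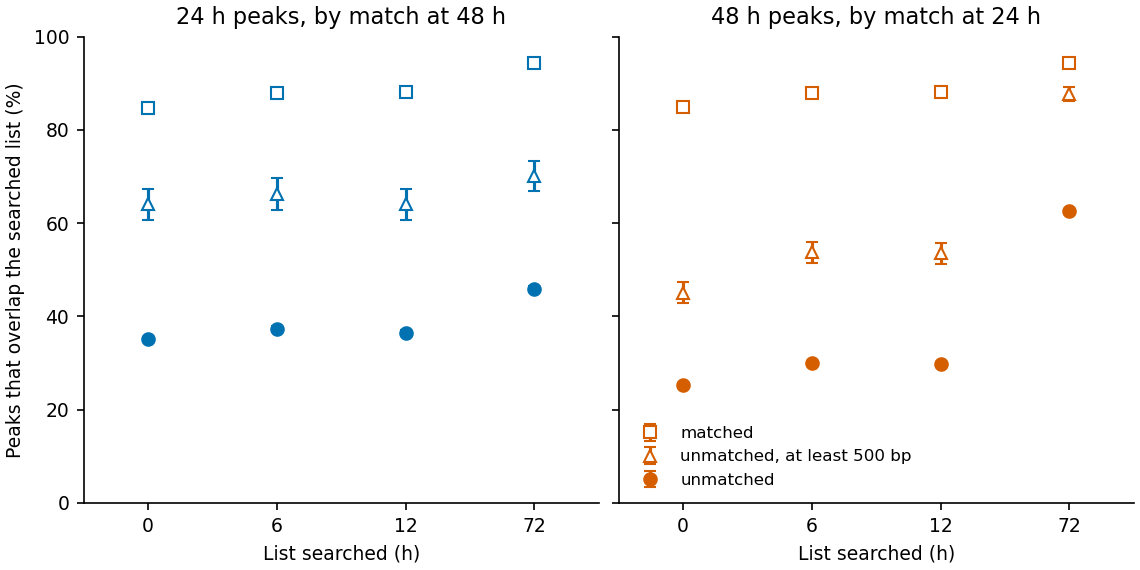
Share of 24 h peaks (left) and 48 h peaks (right) that overlap a peak of the 0, 6, 12 or 72 h list (horizontal axis, hours), in percent, for matched peaks, unmatched peaks and unmatched peaks of at least 500 bp; bars are 95% Clopper-Pearson intervals. Unmatched 48 h peaks lie between 25.3% and 29.9% at the 3 earlier times and at 62.6% at 72 h, whereas unmatched 24 h peaks lie between 35.2% and 45.9% throughout.

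By their presence in all lists, the unmatched 48 h peaks fell into 4 sets. At 48 and 72 h and at no earlier time were 15339 peaks (25.6%), with a median width of 277 bp. A larger set of 22158 (37.0%, median 304 bp) had been seen at 0, 6 or 12 h, was missing at 24 h and was present again at 72 h. The 48 h list alone held 13843 (23.1%, 258 bp), and 8513 (14.2%) had been seen early and were gone again at 72 h. A subset of 4423 was missing at 24 h but present in every other list. Among unmatched 24 h peaks, 9441 (28.2%) had been seen at 0, 6 or 12 h and were absent at both 48 and 72 h, and 11127 (33.2%) had been seen early and came back at 72 h. A further 8679 (25.9%) were in the 24 h list alone, and 4243 (12.7%) were also at 72 h and at no earlier time. Subsets of 3041 and 1562 unmatched 24 h peaks had been present at all of 0, 6 and 12 h, the former with and the latter without a 72 h peak. With 1 list on each side, 24045 unmatched 48 h peaks were present at 72 h and not at 12 h, and 4385 the reverse, whereas among unmatched 24 h peaks 8278 were present at 72 h and not at 12 h and 5129 the reverse.

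Width went with being found again, though a wider peak also has more room to overlap by 1 bp. Unmatched 48 h peaks below 300 bp overlapped a 72 h peak in 54.8% of cases, those from 300 to 399 bp in 73.3%, from 500 to 749 bp in 87.1% and from 750 to 999 bp in 96.6%. All 6 unmatched 48 h peaks of at least 1000 bp did so. For unmatched 24 h peaks these shares were 41.2% below 300 bp, 53.0% from 300 to 399 bp and 69.8% from 500 to 749 bp. Of the unmatched 24 h peaks of at least 500 bp, 64.1% had been present at 0 h, against 45.1% of such 48 h peaks.

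Named regions are given without gene annotation, because no gene positions in hg19, the build of the lists, were used here. The 5 widest 48 h peaks that were absent at 0, 6, 12 and 24 h and present at 72 h are extremes of a set of 15339 with a median width of 277 bp. On chromosome 5, a peak from 165239632 to 165240541 measured 910 bp and then, at 72 h, 706 bp, and the nearest 24 h peak lay 4974 bp away. On chromosome 11, a peak from 71277767 to 71278676 also measured 910 bp, and 486 bp at 72 h. Another on chromosome 11, from 57107868 to 57108680, measured 813 bp and then 660 bp. The peak on chromosome 8 from 11670902 to 11671742 measured 841 bp and then 403 bp. The peak on chromosome 12 from 27169972 to 27170791 measured 820 bp and then 402 bp. All 5 were narrower at 72 h than at 48 h, and they were picked as the widest at 48 h. The next in order, on chromosome 14, measured 808 bp at 48 h.

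The 5 widest 24 h peaks that had been present at 0, 6 and 12 h and were absent at 48 and 72 h were picked by the mirrored rule. The widest, on chromosome 3 from 15503660 to 15504673, measured 382 bp in normoxia, 740 bp after 6 h, 582 bp after 12 h and 1014 bp after 24 h, and the nearest 48 h peak lay 3377 bp away. A second one on chromosome 3, from 132773517 to 132774400, measured 432, 539, 302 and 884 bp at these times. The peak on chromosome 9 from 16192802 to 16193612 measured 577, 387, 267 and 811 bp. The others lay on chromosome 15 from 68874055 to 68874871 (817 bp at 24 h) and on chromosome 5 from 108586446 to 108587222 (777 bp). Each of these 5 was at its widest at 24 h, the time by which it was ranked, and had no peak 24 h later. The next in order, on chromosome 13, measured 759 bp at 24 h.

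The places of unmatched peaks were then described, first by distance. Unmatched 48 h peaks lay a median of 1742 bp from the nearest 24 h peak (quartiles 593 and 5020 bp), and unmatched 24 h peaks 1148 bp from the nearest 48 h peak (424 and 3141 bp). Within 300 bp, the size to which the DNA was sheared, were 13.5% of the unmatched 48 h and 18.1% of the unmatched 24 h peaks. More than 5 kb away were 15023 unmatched 48 h peaks (25.1%) and 5348 unmatched 24 h peaks (15.97%). The unmatched 48 h peaks thus stood farther off than the unmatched 24 h ones, next to a list that is itself sparser. Gaps in the 24 h list were filled accordingly. Of the 3954 stretches of 50 to 100 kb without a 24 h peak, 2336 (59.1%) held at least 1 peak at 48 h, and 1082 held 2 or more. Of the 3324 such stretches without a 48 h peak, 864 (26.0%) held a 24 h peak and 194 held 2 or more.

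Peak density was then taken into account. The 2700 autosomal bins of 1 Mb that held a peak in any list were put into deciles by their mean peak number in the 0, 6, 12 and 72 h lists, so that neither list of the comparison set the order. The rise was steepest where peaks were sparse. In the sparsest decile, with 6.90 peaks per bin at 24 h and 8.64 at 48 h, peak number went from 1863 to 2333, a ratio of 1.25 (1.18 to 1.33, counting error only). The ratio was 1.16 in the third decile, 1.13 in the fifth, 1.08 in the seventh and 1.03 (1.02 to 1.04) in the densest, where 73464 peaks became 75338. It fell at every decile. Relative to the ratio of the totals, 1.08, the sparsest decile stood at 1.16 and the densest at 0.951, so the densest bins rose in number and fell in share. With the same number of peaks in both lists, widest first, the densest decile fell in number too (0.967), and the sparsest stood at 1.08. The 5 sparsest deciles held 23.4% of the 24 h peaks and 24.9% of the 48 h peaks. They accounted for 44.4% of the net rise in peak number. Covered length gave ratios of 1.26 in the sparsest and 1.04 in the densest decile.

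**Figure D3:**
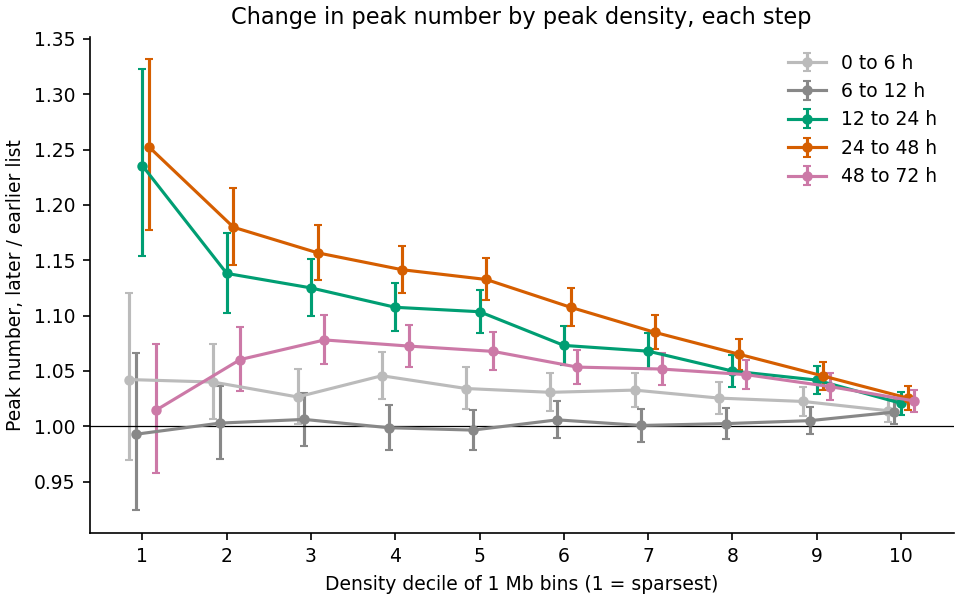
Ratio of peak number in the later to that in the earlier list (vertical axis) by density decile of 1 Mb bins (horizontal axis, 1 is the sparsest), for the 5 steps; for each step deciles were set on the 4 lists outside it, and bars are 95% Clopper-Pearson intervals turned into ratios. The step from 24 to 48 h falls from 1.25 to 1.03, that from 12 to 24 h from 1.24 to 1.02, and that from 48 to 72 h starts at 1.01, is highest at 1.08 in the third decile and ends at 1.02.

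The same ratio in the other steps, with deciles set on the lists outside each step, was 1.24 in the sparsest and 1.02 in the densest decile from 12 to 24 h. From 48 to 72 h it was 1.01 and 1.02, with 2343 and 2377 peaks in the sparsest decile. From 6 to 12 h it was 0.993 and 1.01. From 0 to 6 h it was 1.04 (0.970 to 1.12) and 1.01. In the sparsest decile, the ratios were thus highest in the steps from 12 to 24 and 24 to 48 h, which share the 24 h list. In the second decile, the ratio was 1.18 from 24 to 48 h and 1.06 (1.03 to 1.09) from 48 to 72 h. The steps were not tested against each other.

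The unmatched share went with density as well. In the sparsest decile 34.8% of 48 h peaks (32.9 to 36.8%) and 17.8% of 24 h peaks (16.1 to 19.6%) were unmatched. In the densest these were 13.4% (13.2 to 13.7%) and 10.1% (9.89 to 10.3%). From the fourth to the ninth decile, the unmatched share of 24 h peaks stayed between 10.8% and 11.2%, while that of 48 h peaks fell from 22.6% to 15.5%. Width and covered length moved with density. The median width of 48 h peaks was 332 bp in the sparsest and 481 bp in the densest decile, and 24 h peaks covered 0.265% and 17.9% of the length of these bins. Among 48 h peaks of 300 to 399 bp alone, the unmatched share was 28.8% in the sparsest, 18.3% in the ninth and 19.7% in the densest decile. Among 24 h peaks of this width it was 13.1%, 11.5% and 13.3%, with the lowest value, 8.55%, in the third decile. Of the unmatched 48 h peaks, 49.7% were found at 72 h in the sparsest decile, against 60.04 to 65.12% in the others.

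At the level of single bins the rise was broad and shallow. Of the 2700 bins, 2260 (83.7%) held more peaks at 48 h than at 24 h, 333 (12.3%) fewer and 107 the same number. Bins were called from the size of the change, with no test. The numbers had to differ by at least 10 peaks, and the ratio, after adding 0.5 on both sides and scaling by list totals, had to reach 1.5 or its inverse. By this rule 10 bins (0.37%) were higher at 48 h and 0 were lower. These calls depended on the setting: 3 of the 10 held with the same number of peaks in both lists, 4 by covered length and 0 with peaks of at least 500 bp, which called 37 others, and no bin of 5 Mb was called. All 10 were in the sparsest or second sparsest decile. The rule itself favours such bins, since a ratio of 1.5 takes far more added peaks in a dense bin. Bins of the second decile held a mean of 30.8 peaks at 24 h, and those of the densest 272. The lowest relative ratio among them was 1.52. Among bins with at least 10 more peaks, the highest ratio that missed was 1.48, and bins with a smaller difference are not in that value. A difference of at least 10 peaks alone was reached upward by 1215 bins and downward by 33.

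The leading bin was chromosome 16 from 61 to 62 Mb. Its number of peaks was 27 in normoxia, 33 after 6 h, 35 after 12 h, 38 after 24 h, 70 after 48 h and 71 after 72 h. The earlier 4 numbers lie close together and the later 2 stand apart from them. Of its 70 peaks at 48 h, 36 were unmatched, and 44 lay between 200 and 500 kb from the start of the bin, where 20 had been at 24 h, a window singled out after its values were seen. Chromosome 14 from 82 to 83 Mb held 35, 43, 29, 36, 60 and 56 peaks at the 6 times in order. Chromosome 9 from 79 to 80 Mb held 29, 35, 26, 30, 51 and 48. In both, the 48 and 72 h numbers lay above all earlier ones. Chromosome 2 from 195 to 196 Mb held 14, 23, 22, 27, 46 and 52 peaks. It was the one bin of these 10, beside that on chromosome 16, with more peaks at 72 h than at 48 h.

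The other called bins were smaller in number. Chromosome 6 from 57 to 58 Mb went from 25 to 42 peaks between 24 and 48 h and chromosome 7 from 51 to 52 Mb from 22 to 38, and both numbers stayed the same at 72 h. Chromosome 3 from 166 to 167 Mb went from 20 to 33, chromosome 10 from 2 to 3 Mb from 13 to 25, and both chromosome 11 from 29 to 30 Mb and chromosome 17 from 6 to 7 Mb from 14 to 24. In these 4 the 72 h number, between 19 and 28, lay below that of 48 h. The 72 h list, which the call did not use, held more peaks than the 24 h list in all 10 bins, as it did in 89.5% of all bins. Between 12 and 72 h, both outside the call, the ratio relative to the totals was above 1 in all 10 and in 57.8% of all bins, with medians of 1.47 and 1.03. The bins are all sparse, and sparse bins rose relative to the totals in general, as given above.

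**Figure D4:**
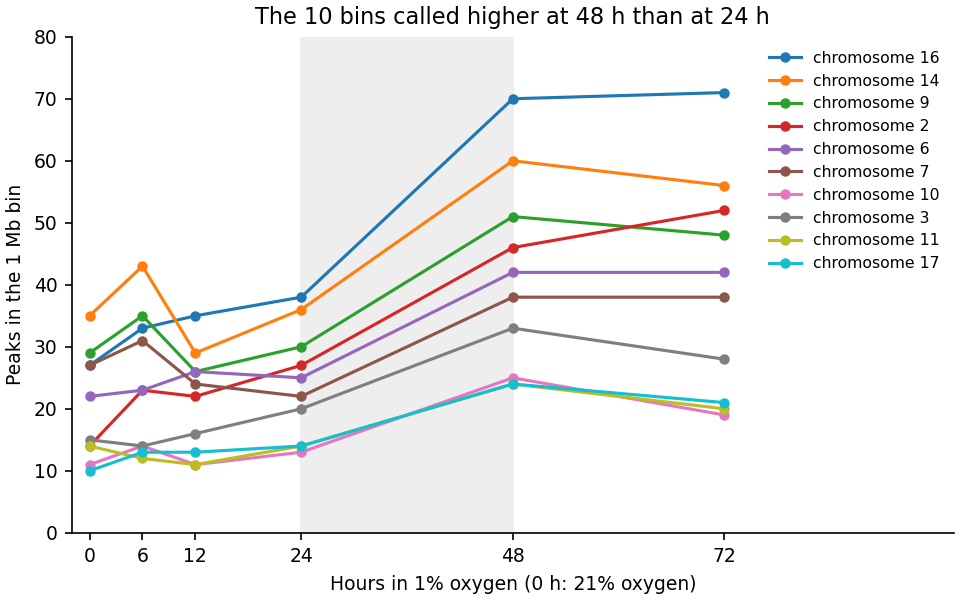
Number of peaks (vertical axis) in each of the 10 bins of 1 Mb called higher at 48 h, against hours in 1% oxygen (horizontal axis; 0 h is 21% oxygen), 1 line for each bin, named by its chromosome; the grey band marks the step from 24 to 48 h. The bin on chromosome 16 goes from 38 to 70 peaks within the band, and all 10 bins hold more peaks at 72 h than at 24 h.

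No bin was called lower, and the largest falls were small against the number present. Chromosome 10 from 50 to 51 Mb went from 210 peaks at 24 h to 182 at 48 h and 187 at 72 h, after 183 to 196 at the earlier times, so that the 24 h number was the high one. Chromosome 14 from 106 to 107 Mb held 137 peaks at 24 h and 119 at 48 h, with 122 to 131 earlier and 116 at 72 h. Chromosome 2 from 16 to 17 Mb held 176 and 156. Within it, the stretch from 16 to 16.75 Mb held 137 peaks covering 94.3 kb at 24 h and 110 covering 72.7 kb at 48 h. Of the 137, 40 had no 48 h counterpart, and 8 of the 110 had no 24 h counterpart. Covered length in this stretch fell by 22.9% in this step, after changes of -6.39%, -3.83% and -0.820% in the 3 steps before, and then rose by 19.3% to 72 h. These falling bins were chosen after their values were seen, and the stretch on chromosome 2 was known from earlier work on these lists.

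By chromosome, all 22 autosomes held more peaks at 48 h than at 24 h. Chromosome 4 had the highest ratio, 1.11 (1.09 to 1.13), with 17986 and 19917 peaks, and chromosome 6 followed with 1.10 (1.08 to 1.12). Chromosome 11 had the lowest, 1.03 (1.01 to 1.06), with 14735 and 15248 peaks, and its interval did not reach the ratio of all autosomes. It had the lowest unmatched share among 48 h peaks, 15.7%, and the second highest among 24 h peaks, 12.7%, after 13.8% on chromosome 18. After allowance for the density of its bins, chromosome 11 stood at 0.962 of the number expected from its deciles, and chromosome 17 was highest at 1.02. By arm the adjusted value was 0.953 for 11p and 0.966 for 11q, the lowest of 39 arms after 18p (0.919, from 644 to 686 peaks). The arms with the highest adjusted values were 19q (1.04, from 3025 to 3428 peaks), 5p (1.04, from 3927 to 4464) and 17p (1.04, from 2517 to 2796). No interval was computed for the adjusted values of arms or chromosomes. Across the 22 autosomes, which share both libraries and differ in base composition, the ratio was lower where mean peaks per Mb in the 0, 6, 12 and 72 h lists were more (Pearson's r = -0.430, Spearman's rho = -0.592), given as a description only.

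**Figure D5:**
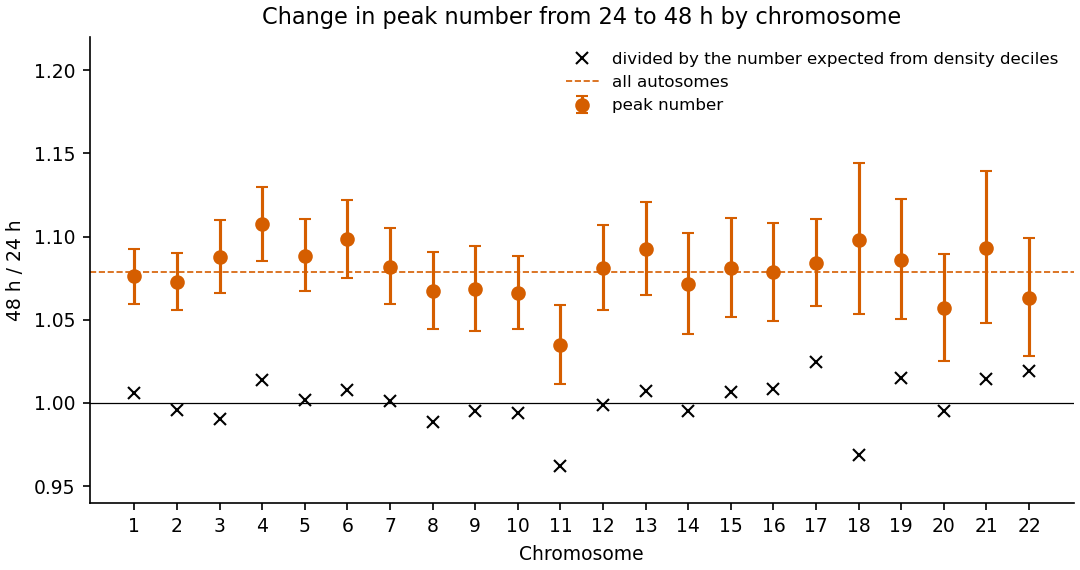
Peak number at 48 h divided by that at 24 h (vertical axis) for each autosome (horizontal axis), with 95% Clopper-Pearson intervals turned into ratios; the dashed line is the ratio of all autosomes, 1.08, and crosses give the 48 h number divided by the number expected from the density deciles of the chromosome's bins. All 22 ratios lie above 1, and chromosome 11 is lowest by the ratio (1.03) and by the adjusted value (0.962).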

How the data were processed

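DNA of 7 samples was studied by capture of 5-hmC; the input was not analysed here. Groups follow the time and oxygen in the labels. Each deposited list has chromosome, start and end per peak, with no count, score or height, called per sample. Per the submitters' processing notes, which state neither role nor order, the tools were BWA 0.7.17, MACS2 and HTSeq and the build hg19. How strict peak calling was, and against which control, is not given in the sources used here.

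Overlaps, widths, gaps, 1 Mb bins (by midpoint) and deciles were computed in Python 3.11.15 with NumPy 2.4.6, SciPy 1.17.1 and pandas 2.3.3, and drawn with Matplotlib 3.10.9. No peaks overlapped within a list. The widest gap between peaks parted the arms, and chromosomes 13, 14, 15, 21 and 22 were counted as q alone. The expected number of an arm or chromosome is its 24 h number times the ratio of each bin's decile. The functions were tested on simulated lists, where 9 of 9 quantities came back exactly. Intervals cover counting error only.

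Named regions were the 5 widest peaks of each of 2 presence patterns, and named bins the 10 called with the largest difference of square roots. Members, lists and rules were chosen with earlier results of these data known. The gene table at hand is for GRCh38.p14, so it served only for protein-coding genes per chromosome, and gene lists, cell type markers, peaks per gene, base composition and sequences were not run.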

Additional observations from a re-analysis of the deposited data

How the results depend on the processing

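With overlap of at least 0.5 of both peaks, unmatched 48 h and 24 h peaks were 24.3% and 18.4%. By midpoint they were 20.1% and 12.6%, with peaks joined within 300 bp 17.6% and 10.4%, and among those of 500 bp or wider 1.61% and 0.735%. With the same number of peaks in both lists, widest first, they were 14.7% and 13.8%. This setting removes only the narrowest 48 h peaks, up to 247 bp. Bins called higher numbered 0 at 5 Mb, 36 at 250 kb (5 of them inside the 10), 37 with peaks of at least 500 bp (0 of the 10), 3 with the same number of peaks (all 3 among the 10) and 5 by covered length (4 of the 10). Bins called lower numbered 1 at 250 kb and 1 with peaks of at least 500 bp. The ratio in the sparsest and densest decile was 1.08 and 0.967 with the same number of peaks, and 1.13 and 1.04 with 5 Mb bins. In the densest decile it was 1.05 with peaks of at least 500 bp and 1.04 by covered length. With the narrowest width of each list subtracted, 57.5% of pairs were wider at 48 h. The share of unmatched 48 h peaks found at 72 h was 55.7% with overlap of at least 0.5 and 87.7% with peaks of at least 500 bp. The other 8 of 34 alternatives were counted as unchanged. Among these, bins called lower stayed at 0 with 5 Mb bins, with the same number of peaks and by covered length. The remaining ones stayed within counting error. Why values moved between settings was not tested. Unmatched peaks stayed more frequent at 48 h than at 24 h, and the decile ratio higher in sparse bins, under each alternative run for them. For unmatched peaks this direction is largely given by the longer 48 h list. With the same number of peaks in both lists, the 2 unmatched counts must lie close, so neither outcome is separate support. No paired analysis was possible because each time has 1 library, and no library could be left out. Depth is unknown, so its effect has no value here.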

Other observations

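The X chromosome, left out of the comparison, had a higher ratio of peak number than any autosome, though its interval overlaps those of 15 of the 22 autosomes. It held 4316 peaks at 24 h and 4932 at 48 h, a ratio of 1.14 (1.10 to 1.19, counting error only). Of its 48 h peaks 26.9% had no 24 h counterpart, and of its 24 h peaks 15.7% had no 48 h counterpart, against 18.1% and 10.9% on the autosomes. The values of the X chromosome were not adjusted for peak density. In autosomal bins the ratio was 1.25 in the sparsest decile, 1.18 in the second and 1.03 in the densest. The unmatched share of 48 h peaks in these deciles was 34.8%, 27.4% and 13.4%.

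Among peaks of at least 500 bp, the 1 Mb bin called lower at 48 h was the bin of chromosome 9 that starts at 16 Mb, where 81 such peaks became 58. It holds the peak from 16192802 to 16193612 described above as absent at 48 and 72 h. Among 250 kb bins, the one called lower was on chromosome 1 from 56 to 56.25 Mb, where 35 peaks became 23.

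Across the 22 autosomes, which share both libraries, the ratio of 48 h to 24 h peaks went with protein-coding genes per Mb less closely than with peak density (Pearson's r = -0.148, Spearman's rho = -0.421, given as a description).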
